A study of Homo sapiens with 2 samples.

Results

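Genes for chaperones and disulfide-forming enzymes of the endoplasmic reticulum (ER) were compared between U251 cells given the solvent DMSO and U251 cells given 5 µM G-TPP for 6 h. The members are 34 genes listed by symbol, and 32 of them have a microarray probe set that carries their symbol alone. After a filter on brightness 31 of these were among the 11091 genes kept, out of 18417 named genes on the array. PDIA3 and TXNDC5 have probe sets only in common with other genes and are not reported, and CDNF was under the filter. Where a gene had more than 1 probe set, the brighter by the mean of both arrays was used.

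U251 is an established human glioblastoma line, grown here in high-glucose DMEM. G-TPP is a Gamitrinib, in which an Hsp90 inhibitor of the geldanamycin type is linked to a phosphonium cation that carries it into mitochondria. The study asked how gene expression responds when Hsp90-type chaperones of mitochondria are inhibited, and inhibition itself was not measured. Each condition is 1 array of 1 culture of 1 line, so differences between arrays have no replicate check, and no standard error or p-value can be given. "Higher" and "lower" describe these 2 arrays, and fewer transcripts per cell cannot be told apart from fewer cells with the transcript.

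Secreted and membrane proteins fold inside the ER. Protein disulfide isomerases (PDIs) form and rearrange disulfide bonds there and are reoxidised by ERO1 oxidases, while calnexin and calreticulin hold unfinished glycoproteins by their sugars. Prolyl isomerases turn peptide bonds at proline, and cochaperones such as HYOU1 and SIL1 exchange the nucleotide of BiP, the Hsp70 of the ER. When unfolded protein builds up, the transcription factors ATF6 and XBP1 of separate branches of the unfolded protein response are known to activate many of these genes.

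As a group the members lay higher in the G-TPP array, by a small margin, and a few lay far higher. Their median log2 difference, G-TPP minus DMSO, was 0.25 over the 31 kept members (1.19-fold), against -0.04 over all kept genes. Of the 31, 24 were above 0 (77.4%), where 44.0% of all kept genes were. At least 2-fold higher were 5 members (16.1%), namely ERO1B, SDF2L1, HYOU1, FKBP14 and MANF, where 2.8% of kept genes reached 2-fold. ERO1B reached the filter of 239.2 in the G-TPP array alone (118.8 with DMSO, 555.9 with G-TPP), so its place in these counts rests on that array. The same holds for FKBP9 (230.8 and 254.9), 1 of the members above 0. None of the 31 was 2-fold lower, as were 0.55% of kept genes. At 1.5-fold 9 members were higher (29.0%, against 7.37% of kept genes) and 1, FKBP11, was lower (3.23%, and 3.23% of kept genes). Placed by their difference among all kept genes, 9 members were in the top 10% and 2, FKBP7 and FKBP11, in the lowest 10%.

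**Figure D1:**
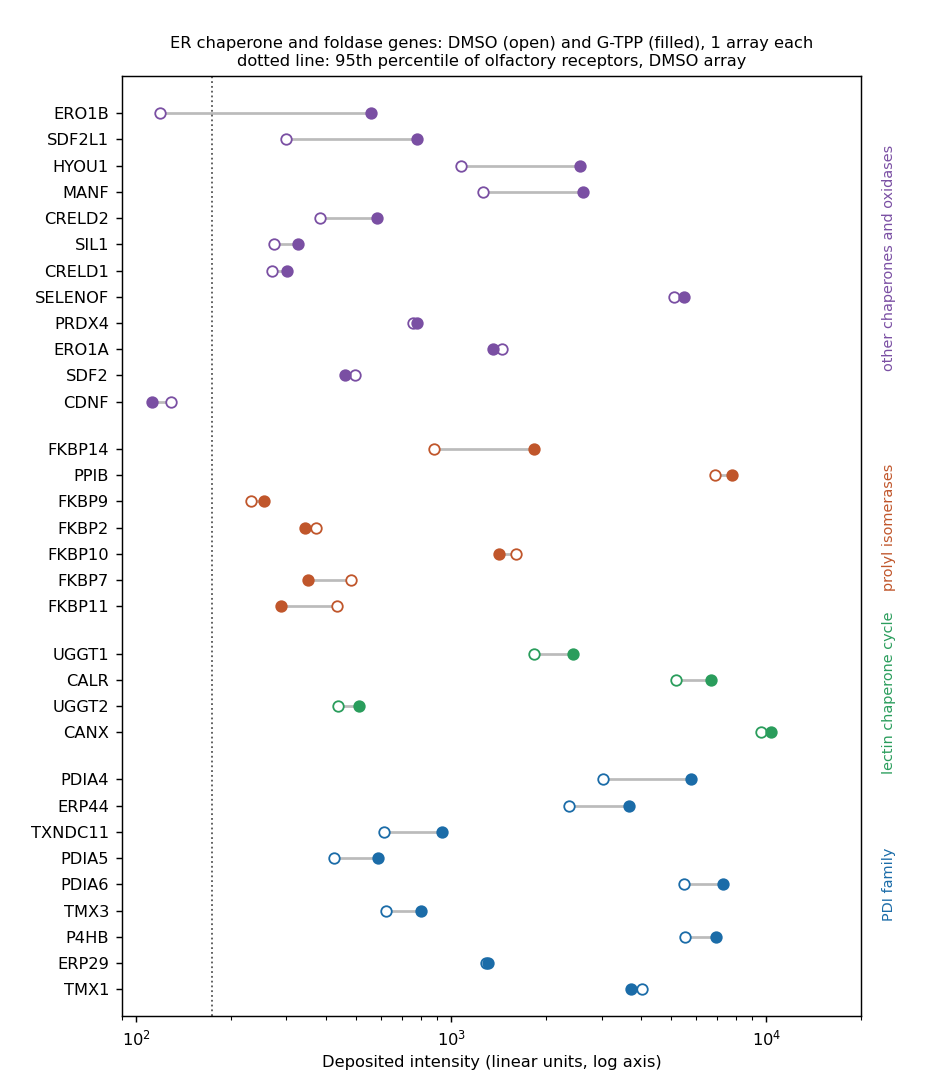
Deposited intensity (horizontal log axis) of the 32 members with a probe set of their own, with DMSO as open and G-TPP as filled points, 1 array each, grouped by class. The dotted line is the 95th percentile of olfactory receptor probe sets in the DMSO array (174.2). The widest gaps are those of ERO1B, SDF2L1 and HYOU1, and CDNF lies left of the line in both arrays.

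Elements that ATF6 and XBP1 bind are known from promoters of this family, so the sequence before each annotated start was searched. RefSeq windows on GRCh38.p14, from 250 bases before to 50 bases after a start, were at hand for 31 of the 34 members, 9 of them with several starts; FKBP10, FKBP14 and PDIA3 had none. The ER stress element ERSE (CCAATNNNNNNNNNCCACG, N being any base, either strand) stood before 5 members, CALR, CANX, CRELD2, ERO1B and PDIA6. That is 16.1% of members with a window, against 16 of 8946 kept genes with a window (0.179%) and 0.0769% of all windows. The shorter ERSE-II (ATTGGNCCACG) stood before HYOU1 and SDF2L1, 6.45% of members, against 0.156% of kept genes and 0.0541% of windows. ERSE was defined on promoters of ER chaperone genes, calreticulin among them, so these shares are not independent evidence. A match is a description of letters and not a measured site.

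The sequences are shown because these 7 genes include 3 of the 5 members at 2-fold. They read towards the gene, with the fixed letters of the element in capitals. An element on the opposite strand reads from CGTGG to ATTGG for ERSE and to CCAAT for ERSE-II. HYOU1 (chr11:119057244-119057420, minus strand) holds 2 copies of ERSE-II with the same letters. SDF2L1 is at chr22:21642084-21642154 (plus), CRELD2 at chr22:49918524-49918602 (plus), ERO1B at chr1:236282153-236282208 (minus) and CALR at chr19:12938359-12938432 (plus). PDIA6 (chr2:10812823-10812901, minus) has the element before the downstream of its 2 annotated starts, and for CANX (chr5:179698778-179698796, plus), which has 4 starts, the element alone is given.
HYOU1: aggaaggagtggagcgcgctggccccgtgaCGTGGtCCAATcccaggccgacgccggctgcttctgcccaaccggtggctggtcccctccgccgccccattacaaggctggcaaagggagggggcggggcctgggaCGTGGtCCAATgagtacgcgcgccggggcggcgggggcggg
SDF2L1: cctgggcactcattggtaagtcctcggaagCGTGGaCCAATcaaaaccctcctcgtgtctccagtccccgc
CRELD2: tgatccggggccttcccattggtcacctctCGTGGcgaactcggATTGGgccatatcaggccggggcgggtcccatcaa
ERO1B: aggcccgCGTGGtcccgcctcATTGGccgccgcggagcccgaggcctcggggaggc
CALR: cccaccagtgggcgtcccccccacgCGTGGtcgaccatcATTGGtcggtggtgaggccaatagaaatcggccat
PDIA6: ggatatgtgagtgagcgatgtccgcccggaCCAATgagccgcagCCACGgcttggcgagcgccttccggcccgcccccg
CANX: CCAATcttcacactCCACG

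Carrying the element did not sort the members cleanly by their difference. The 7 with it had a median log2 difference of 0.60, with CANX lowest at 0.11 and ERO1B highest at 1.67 or more, a lower bound since its DMSO value lies under the background floor of 174.2, the 95th percentile of olfactory receptor probe sets. The 22 other kept members with a window ran from -0.60 to 1.06 with a median of 0.17. MANF and PDIA4, near or past 2-fold, had neither element in these letters and windows. Among 23 kept genes outside the members that carry ERSE or ERSE-II, 16 were above 0 and 5 were at 2-fold, with a median of 0.13. Those 5 were HERPUD1, XBP1, FICD, HSPA5 and TRIM5. Of all kept genes 44.0% were above 0 and 2.8% at least 2-fold higher. The 23 include the ER chaperone genes HSPA5 and HSP90B1, so they are not independent evidence either.

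Further elements were searched in the same way. The element UPRE (TGACGTGG) was found for 3 members, HYOU1, TXNDC11 and TXNDC5, 9.68% against 1.2% of kept genes. In HYOU1 it starts 188 bases before the annotated start and overlaps the distal ERSE-II, which starts at 185. The core TGACGT, which lies within UPRE, was found for 6 members (19.4%, against 13.9% of kept genes). The ATF4-type element TGATGNAA and the heat shock element GAANNTTCNNGAA matched 0 members, and 2.76% and 0.414% of kept genes.

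Among the PDIs 8 of 9 kept members lay above 0, none reached 2-fold (2.8% of all kept genes did), and the class median was 0.41 (1.33-fold). PDIA4, a PDI of the ER lumen that associates with BiP, went from 3035 with DMSO to 5771 with G-TPP, 1.90-fold higher and just short of 2-fold. ERP44, which retains ERO1 oxidases and other clients in the early secretory pathway, went from 2359 to 3674 (1.56-fold). TXNDC11, a membrane-bound protein with thioredoxin domains, went from 612.1 to 936.5 (1.53-fold). These 3 were the PDIs past 1.5-fold.

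The remaining PDIs differed by less. PDIA5 went from 423.4 to 587.4 (1.39-fold higher), PDIA6 from 5478 to 7289 (1.33-fold) and the membrane-bound TMX3 from 618.9 to 800.2 (1.29-fold). P4HB, the archetypal PDI and also a subunit of collagen prolyl 4-hydroxylase, went from 5507 to 6930 (1.26-fold). It is read by 2 probe sets, with log2 differences of 0.33 for the brighter, used here, and 0.48 for the dimmer. ERP29, a PDI relative without the active-site cysteine pair, was nearly level at 1286 and 1305. TMX1, another membrane-bound PDI, was the 1 PDI below 0, at 4036 with DMSO and 3723 with G-TPP (1.08-fold lower).

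In the lectin chaperone cycle, all 4 genes listed as members lay above 0 and none reached 1.5-fold, with a median of 0.29. UGGT1, the folding sensor that puts glucose back on misfolded glycoproteins so that they bind the lectins again, went from 1833 to 2440 (1.33-fold higher). Its relative UGGT2 went from 437.8 to 508.2 (1.16-fold). The soluble lectin CALR went from 5171 to 6670 (1.29-fold), and CANX, its membrane-bound counterpart, from 9597 to 10359 (1.08-fold). CALR and CANX both carry an ERSE, while UGGT1 and UGGT2, with neither ERSE nor ERSE-II in their windows, also lay above 0. The gap of 0.26 between the log2 differences of CALR and CANX is of the order of the scatter between probe sets given below.

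**Figure D2:**
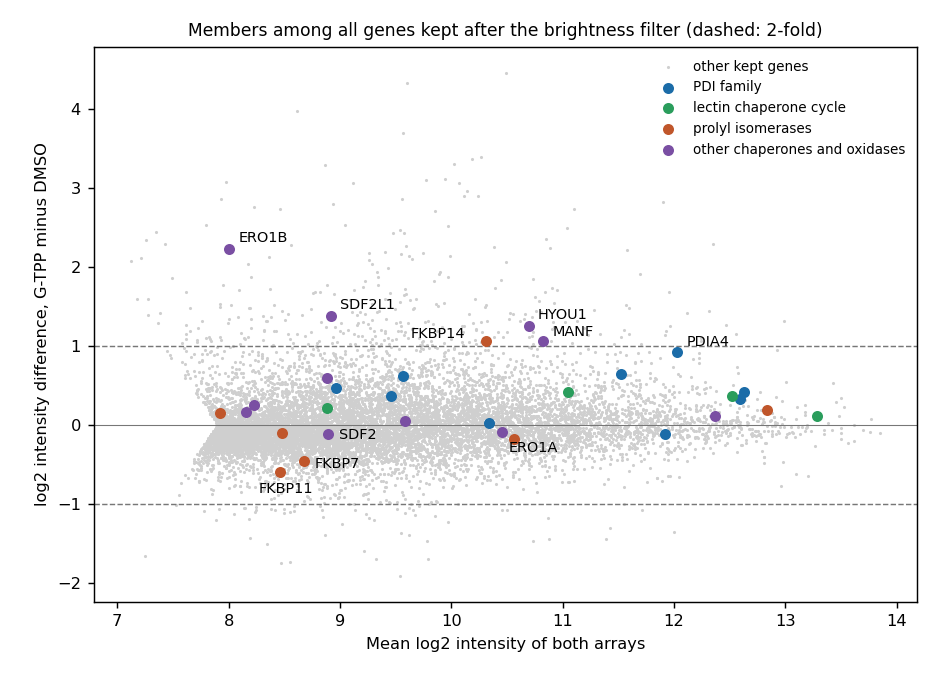
Log2 intensity difference, G-TPP minus DMSO (vertical), against the mean log2 intensity of both arrays (horizontal) for the 11091 kept genes in grey and the 31 kept members in colour by class; dashed lines mark 2-fold. ERO1B is drawn at its measured difference, which rests on a DMSO value under the floor. 5 members lie above the upper line, PDIA4 lies just under it, and none lies below the lower line.

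Prolyl isomerases pointed both ways. The class median was -0.11 over 7 genes, with 3 above 0 and 4 below. Its sign depended on the genes kept and on the summary used. A filter at the 75th percentile leaves only FKBP10, FKBP14 and PPIB, with a median of 0.18. The mean over the 7 genes was 0.0064. FKBP14, an isomerase that acts on collagens, went from 881.9 to 1837, 2.08-fold higher, at percentile 97.5 of all kept genes. FKBP11, an isomerase known from secretory cells, went the other way, from 434.1 to 287.3 (1.51-fold lower, percentile 3.05). FKBP7, which binds BiP, went from 480.0 to 350.0 (1.37-fold lower, percentile 6.14).

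The other 4 isomerases lay within 1.14-fold of level. FKBP10, like FKBP14 a collagen chaperone, was at 1608 with DMSO and 1417 with G-TPP (1.13-fold lower), and FKBP2 at 371.3 and 344.5 (1.08-fold lower). PPIB, the ER cyclophilin that works with collagen-modifying enzymes, was at 6875 and 7810 (1.14-fold higher). FKBP9 was dim, at 230.8 and 254.9 (a log2 difference of 0.14). Thus 1 of the 2 collagen-linked FKBP genes was at 2-fold and the other was below 0.

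Partners of BiP held 2 of the largest differences. HYOU1, a large Hsp70 relative that exchanges the nucleotide of BiP, went from 1077 to 2555, 2.37-fold higher. SIL1, the unrelated exchange factor of BiP, went from 273.7 to 326.3 (1.19-fold). SDF2L1, which joins the J protein DNAJB11 in a complex that keeps clients of BiP soluble, went from 299.5 to 779.2, 2.60-fold higher. Its paralog SDF2 was at 495.2 and 458.8, 1.08-fold lower.

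Of the small secreted or luminal proteins, MANF was at 2-fold. MANF, a BiP-binding protein first described as a neurotrophic factor, went from 1259 to 2621, 2.08-fold higher. Its paralog CDNF, at 128.9 and 112.2, was under the floor in both arrays, so no fold is given; the floor is the 95th percentile of 360 olfactory receptor probe sets, 174.2 with DMSO and 172.0 with G-TPP. CRELD2, a luminal protein known to be induced by ER stress, went from 383.1 to 579.8 (1.51-fold higher), and its membrane-bound paralog CRELD1 from 269.4 to 301.9 (1.12-fold). CRELD2 shares its upstream region with the mannosyltransferase gene ALG12, which starts 196 bases away on the opposite strand. The same ERSE lies in both windows, and ALG12 had a log2 difference of 0.03 where CRELD2 had 0.60.

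The ERO1 oxidases, which pass electrons from PDIs to oxygen, split most widely. ERO1B was under the floor with DMSO at 118.8 and at 555.9 with G-TPP, at least 3.19-fold higher against the floor, the highest of the members. ERO1A, well above the floor, was at 1445 and 1356, 1.07-fold lower. PRDX4, the ER peroxidase that also reoxidises PDIs, was at 754.2 and 778.9 (1.03-fold higher). SELENOF, a selenoprotein that binds UGGT1, was at 5096 and 5484 (1.08-fold higher). Of 4 oxidase and redox genes, ERO1B alone thus stood past 1.1-fold.

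Set side by side, ERO1B and SDF2L1 were past 2-fold while their partners ERO1A and SDF2 lay slightly below 0. The gap in log2 difference was 1.49 for SDF2L1 over SDF2 and at least 1.77 for ERO1B over ERO1A, with the DMSO value of ERO1B set to the floor. MANF and CDNF give no gap, since CDNF was under the floor in both arrays. CRELD2 lay 0.43 over CRELD1. The gap of CALR over CANX was 0.26 and that of UGGT1 over UGGT2 was 0.20. As a technical scale, 328 genes were read by exactly 2 probe sets past the filter, and their log2 differences scattered by 0.17 (SD per probe set). A gap involves 2 probe sets, so its scale is larger by the square root of 2. The gaps of 0.26 and 0.20 are of that order. This scale leaves out the spread between cultures.

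**Figure D3:**
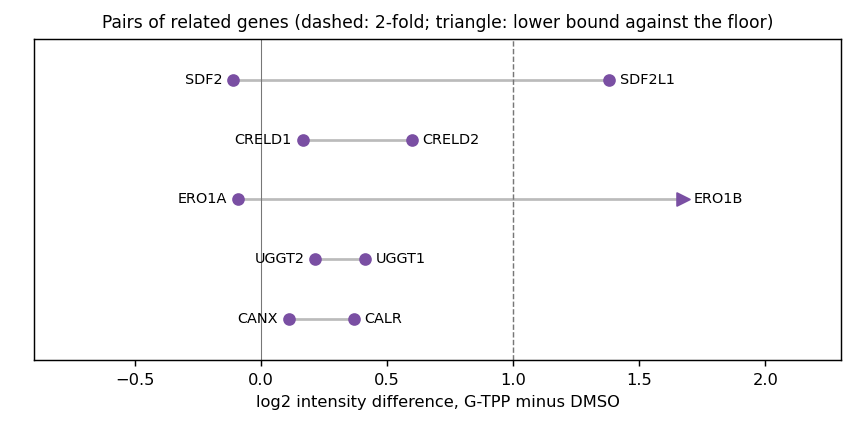
Log2 intensity difference, G-TPP minus DMSO (horizontal), for 5 pairs of related genes, each joined by a grey line, 1 array per condition; the dashed line is 2-fold and the triangle is the lower bound of ERO1B against the floor (1.67). ERO1B and SDF2L1 lie past the line while ERO1A and SDF2 lie slightly below 0.

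Other parts of the ER folding pathway differed in how far they lay from 0. Hsp70, Hsp90 and J proteins of the ER had a median of 1.02 over 9 kept genes, all above 0, and 5 of them were at 2-fold. DNAJB9, a J protein that acts in ER-associated degradation, was 12.99-fold higher (210.4 to 2733). DNAJC3, a J protein of the lumen, was 4.17-fold higher and HSPA5, which encodes BiP, 2.48-fold higher. ER-associated degradation had a median of 0.44 over 17 genes, with 13 above 0 and 6 at 2-fold, led by HERPUD1 (7.06-fold), the ubiquitin ligase adaptor SEL1L (3.33-fold) and SELENOS (2.47-fold). Of all kept genes 2.8% were at least 2-fold higher. None of the 9 kept members in the PDI class was, and a count of 0 among 9 says little beside that share. At 1.5-fold 3 of the 9 were higher, against 7.37% of kept genes.

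Genes for entry into the ER and for N-glycosylation had a median of 0.20 over 32 genes, with 26 above 0 and 0 at 2-fold; SEC11C, TRAM1 and SRP54 were highest at 1.68-fold, 1.64-fold and 1.53-fold. The 11 other kept genes for ER thiol enzymes and isomerases had a median of 0.16. Of them the peroxidase gene GPX8 was 2.26-fold higher, followed by TXNDC15 (1.33-fold) and TMX4 (1.22-fold). Collagen-modifying genes had a median of 0.06 over 12, 6 on each side of 0, yet SERPINH1, the collagen chaperone HSP47, was 2.90-fold and the prolyl hydroxylase genes P4HA2 and P4HA1 2.11-fold and 1.71-fold higher. P4HA1 and P4HA2 encode subunits that pair with P4HB.

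Relatives of the members outside the ER had medians near 0. At least 2-fold higher were 1 of 18 cyclophilins and FKBPs and 2 of 17 thioredoxin-system genes, where 2.8% of all kept genes were. Cyclophilins and FKBPs of other compartments had a median of -0.03 over 18 genes, with 8 above 0; the Hsp90 cochaperone PPID was 2.48-fold and PPIL4 1.53-fold higher, and the mitochondrial PPIF 1.34-fold lower. Thioredoxin-system genes outside the ER had a median of 0.06 over 17 genes, 9 of them above 0. GLRX (3.21-fold) and TXNRD1 (2.23-fold) were higher, and TXNIP, which went from 4258 to 2125, was the 1 gene at 2-fold lower. Transcription factors and sensors of the ER response were all above 0, with a median of 1.22 over 9 genes; DDIT3 was 8.35-fold, the kinase gene EIF2AK3 4.79-fold and XBP1 4.73-fold higher.

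**Figure D4:**
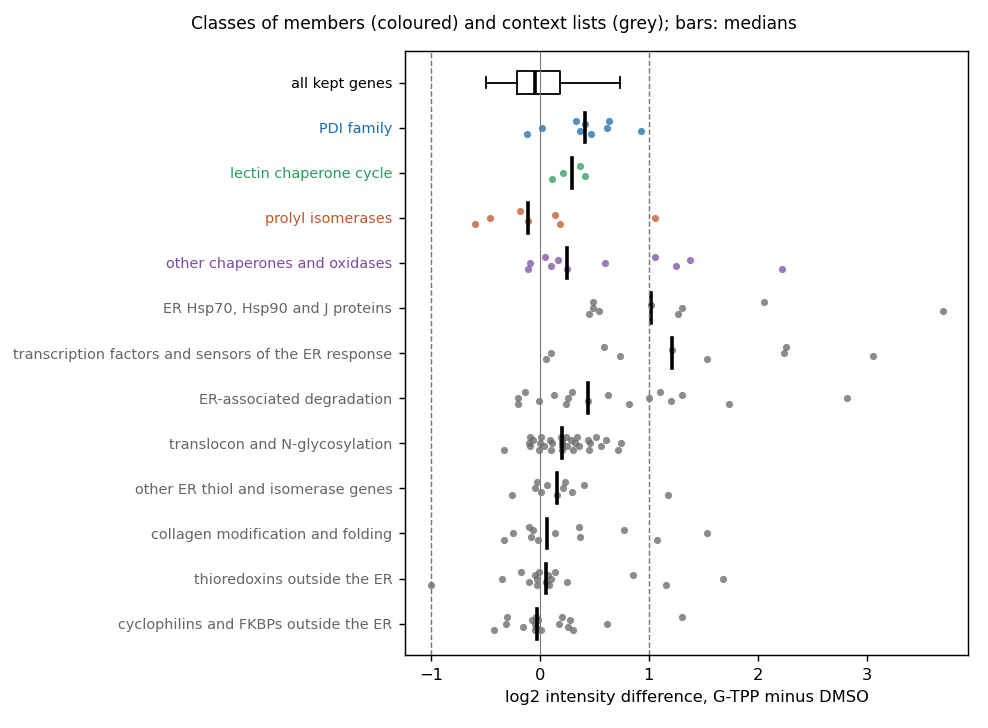
Log2 intensity difference, G-TPP minus DMSO (horizontal), of each kept gene in the 4 classes of members (coloured) and 8 context lists (grey), with black bars at medians and dashed lines at 2-fold; the box shows the quartiles of all kept genes and its whiskers the 5th and 95th percentiles. The median of the ER Hsp70, Hsp90 and J proteins (1.02) lies to the right of every class median of the members, and the prolyl isomerases lie on both sides of 0.

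The cell line's markers were mostly present and those of other cell types mostly dim. Of 10 astroglial or glioma markers 9 passed the filter, while S100B was under the floor in both arrays. GFAP passed only narrowly, at 245.2 with DMSO and 231.5 with G-TPP against a filter of 239.2. The summed intensity of the 10 was 24642 with DMSO and 19424 with G-TPP. VIM and CD44 had log2 differences of -0.14 and -0.07, and PDGFRA, SOX2, SOX9 and NES lay lower, at -1.70, -1.44, -0.98 and -0.50. SLC1A3 and EGFR were higher, at 0.64 and 0.23. Of 26 markers of immune, endothelial, epithelial, neuronal and plasma cells with a probe set, 9 passed the filter and 14 were under the floor in both arrays, PTPRC, PECAM1, EPCAM and the plasma cell genes MZB1 and JCHAIN among them. The epithelial keratin gene KRT8 (2167 with DMSO, 1809 with G-TPP) and SDC1, in the plasma cell list (873.0 and 672.9), were well above it. Also past the filter were CD68 (583.7 with DMSO, 515.5 with G-TPP) and TYROBP (305.7 and 220.4) of the immune list. So were the endothelial CLDN5 (371.8 and 327.9) and CDH5 (319.5 and 304.8), the epithelial KRT18 and KRT19, and the neuronal RBFOX3. The 26 markers' summed intensity was 7352 with DMSO and 6432 with G-TPP, and the part of either marker set in the members' differences was not tested. The 2 arrays had median intensities of 224.8 and 215.5 over 33297 probe sets.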

How the data were processed

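RNA of U251 cells was measured on 1 Affymetrix array per condition, from 6 µg total RNA per the labels' protocols. RMA was run by the authors in Affymetrix Expression Console (version 1.1.2), according to the submitters' processing notes. It is a method meant to correct background and make arrays alike in distribution. The deposited medians over probe sets still differed, at 224.8 with DMSO and 215.5 with G-TPP. The deposited values are intensities on a linear scale; the step that led to that scale is not given in the sources used here. The number of arrays limits the precision.

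Probe sets with a single symbol in the platform annotation (19460 of 33297) were named, and 19429 gene IDs were updated through RefSeq (GRCh38.p14). Genes were kept if the brighter array reached 239.2, the median over probe sets. The log2 of deposited intensities was taken with no pseudocount. All members are named, with up to 3 genes per context list. Folds against a value under the floor are lower bounds. Members and lists were chosen with earlier results of these data known. The procedure was tested on simulated data with planted changes larger than 2-fold, so values near 2-fold were not tried. Protein sequence was not analysed here. Scripts ran on Python 3.11.15 (matplotlib 3.10.9, numpy 2.4.6, pandas 2.3.3, statsmodels 0.14.6).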

Additional observations from a re-analysis of the deposited data

How the results depend on the processing

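With 1 array per condition no replicate could be left out. No paired analysis was possible because each condition has 1 array. The median of the members ran from 0.23 to 0.38 over the filters, centrings, quantile normalization, probe set choices, a pseudocount of 16 and the mean. Except with the filter at the 75th percentile, 5 members were at least 2-fold higher under each setting. So were 287 to 334 of the 10674 to 18417 genes kept. The filter at the 75th percentile leaves 20 members and 4 at 2-fold, without ERO1B, against 233 of 5341 kept genes. At 1.5-fold 9 members were higher and 1 lower, against 817 and 358 of 11091 kept genes. At 3-fold 1 member was higher, against 97 of 11091 kept genes. ERP29 was the 1 member that changed sign, with a value of -0.04 at the lowest. With that stricter filter the median of the prolyl isomerases turned its sign, to 0.18, over FKBP10, FKBP14 and PPIB alone. The medians were then 0.58 for the other chaperones and oxidases, 0.72 for ER-associated degradation and 0.36 for collagen modification. The mean was 0.0064 for prolyl isomerases. It was 0.63, 0.67 and 0.28 for the other chaperones and oxidases, ER-associated degradation and collagen modification, and 1.26 for the ER Hsp70 and J proteins. The factors and sensors had 0.73 with the mean over probe sets or the dimmest probe set. No value was computed for the pair of MANF and CDNF, since CDNF was under the floor.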

Other observations

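Genes outside the members can also carry ERSE or ERSE-II in their start window, and those named here were picked after their values were seen. FICD, the enzyme that modifies BiP with AMP, had a log2 difference of 1.88 and XBP1 one of 2.24. SERP1, a translocon-associated protein of the ER, was at 0.60, HSP90B1, the Hsp90 of the ER, at 0.54 and NUCB1, a calcium-binding Golgi protein, at 0.78. TRIM5, an antiviral restriction factor, was at 1.17. The glycogen synthase gene GYS1 was lowest at -0.40, and the chromatin ATPase gene RUVBL2 was at -0.12. Over the 23 such genes 16 were above 0, where 44.0% of all kept genes were.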
